A study of Mus musculus with 4 samples.

Results

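The collagen gene family was examined in RNA sequencing of mouse islets, the endocrine micro-organs of the pancreas that release insulin and glucagon. The 44 members are the genes whose symbol is Col, a number, the letter a and a number, out of 24940 genes in the table. By textbook type, 11 encode fibrillar collagens (types I, II, III, V, XI, XXIV and XXVII), 8 encode basement membrane collagens (types IV, XV and XVIII) and 25 encode other collagens. Of the 44 genes, 26 averaged at least 1 unit over the 4 libraries and were tested, and 18 lay under that level.

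A knockdown and a control group were compared, with 2 libraries each. The knockdown libraries (replicates 3 and 4) came from islets of male Tafazzin knock-down mice, in which the mitochondrial enzyme that remodels cardiolipin is depleted. The control libraries (replicates 1 and 2) came from islets of male non-transgenic mice. All mice were 3 to 4 months old and ate a low-fat chow, and each library held about 300 islets pooled from 2 to 3 mice. Because the controls carry no transgene, an effect of the transgene and an effect of Tafazzin loss cannot be told apart, and how the knock-down is driven is not given in the sources used here. The p-values rest on the spread between pools, not between single mice. In the main test this spread was taken from a trend over all genes, not from each gene's own pools. Its standard errors and p-values therefore do not reflect how far apart a gene's own pools of a group lie.

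Collagens are secreted proteins that wind into triple helices and carry most of the tensile load of connective tissue. Fibrillar collagens are made chiefly by fibroblasts and stellate cells and form the banded fibres of the capsule and septa. Type IV collagen forms the sheet-like network of basement membranes, which in islets surrounds the blood vessels that endothelial cells line. Before secretion the chains are hydroxylated and chaperoned, and outside the cell propeptides are cut and fibrils are crosslinked.

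A level is given in units, meaning reads over the gene per 10000000 reads of the library total, so that 1 read is worth 0.1233 to 0.1453 units. The library totals were 76680282 and 78630832 reads in the knockdown libraries and 68823160 and 81073502 in the controls. Of 62167624 and 63674275 reads assigned to genes in the knockdown libraries, 4849596 and 4962798 lay outside 13 very abundant rows. In the controls 4595617 and 4320910 of 55470964 and 65175895 reads did. The 13 rows averaged above 25000 units, and the insulin genes Ins1 and Ins2, which also did, were kept among the remaining reads. Collagens held 0.115% and 0.0889% of those remaining reads in the knockdown libraries and 0.0539% and 0.0607% in the controls. The Wilson 95% intervals, computed on halved reads because most read numbers were even, were 0.111 to 0.119 and 0.0853 to 0.0927 in the knockdown libraries, against 0.051 to 0.0571 and 0.0575 to 0.0641 in the controls. These intervals cover counting error only, not the spread between pools. Taz, the gene of Tafazzin, stood at 13.8 and 12.7 units in the knockdown libraries and 23.1 and 15.4 in the controls, in the labelled direction but without passing the test (limma adjusted p = 0.529). The islet hormone gene Ins2 was read at 48195 and 51995 units in the knockdown libraries and 58452 and 46108 in the controls.

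The promoters of 4 collagen genes are shown because the type I and type III genes stand for the fibrillar members that moved together, and because Col4a1 and Col4a2 start within 1 shared region. The sequences are from RefSeq (GRCm38.p6, the mm10 build), which held a promoter for 35 of the 44 genes. Each runs 5′ to 3′ along the gene's own strand, from 250 bases before the start to 50 after it. Capitals mark 3 motifs, each searched on both strands. The CCAAT box was searched by those letters and, for the other strand, as ATTGG. The GC box is GGGCGG, or CCGCCC as the reverse complement. The TATA box is TATAAA, or TTTATA as the reverse complement. The windows lie at chr6:4505368-4505667 (plus strand) for Col1a2, chr1:45311288-45311587 (plus) for Col3a1, chr8:11312777-11313076 (minus) for Col4a1 and chr8:11312555-11312854 (plus) for Col4a2.
Col1a2: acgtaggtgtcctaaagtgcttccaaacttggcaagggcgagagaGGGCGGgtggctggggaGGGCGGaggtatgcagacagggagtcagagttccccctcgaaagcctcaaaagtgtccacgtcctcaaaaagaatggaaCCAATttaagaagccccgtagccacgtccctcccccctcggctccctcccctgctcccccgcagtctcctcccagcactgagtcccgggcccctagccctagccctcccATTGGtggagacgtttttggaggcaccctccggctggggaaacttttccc
Col3a1: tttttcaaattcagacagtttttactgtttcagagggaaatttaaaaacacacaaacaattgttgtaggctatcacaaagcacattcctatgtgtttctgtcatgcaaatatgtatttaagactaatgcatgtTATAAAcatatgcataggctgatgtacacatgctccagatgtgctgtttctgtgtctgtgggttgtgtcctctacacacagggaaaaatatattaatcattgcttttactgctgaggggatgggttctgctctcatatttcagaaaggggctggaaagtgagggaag
Col4a1: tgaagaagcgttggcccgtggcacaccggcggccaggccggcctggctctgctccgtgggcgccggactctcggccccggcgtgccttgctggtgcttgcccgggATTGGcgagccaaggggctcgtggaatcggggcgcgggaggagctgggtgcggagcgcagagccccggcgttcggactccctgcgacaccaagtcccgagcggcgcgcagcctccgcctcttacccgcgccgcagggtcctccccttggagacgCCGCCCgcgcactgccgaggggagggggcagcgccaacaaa
Col4a2: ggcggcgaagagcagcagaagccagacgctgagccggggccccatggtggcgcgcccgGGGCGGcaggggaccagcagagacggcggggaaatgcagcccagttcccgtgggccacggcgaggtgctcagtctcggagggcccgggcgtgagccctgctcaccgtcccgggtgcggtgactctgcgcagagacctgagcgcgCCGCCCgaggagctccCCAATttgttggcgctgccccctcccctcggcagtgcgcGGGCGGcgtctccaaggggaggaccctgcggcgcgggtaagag

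These windows differ in motifs. Col1a2 held 2 CCAAT boxes and 2 GC boxes, while Col3a1 held 1 TATA box and neither of the other motifs. Col4a1 and Col4a2 lie head to head on chromosome 8, their rows overlap by 22 bases and their windows share 78 bases. Across the 38 collagen windows a GC box was present in 60.5%, a CCAAT box in 34.2% and a TATA box in 13.2%. Across all 32851 promoters of the same length the shares were 35.7%, 37.4% and 13.6%. Among the 12 windows of the 10 genes that rose and have one, 50% held a GC box, 25% a CCAAT box and 16.7% a TATA box. A match describes letters only and marks no site that is known to be used.

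In the knockdown islets 12 of the 26 tested collagen genes rose and 0 fell (limma on log2(value + 1), Benjamini-Hochberg adjusted p under 0.05 over 13531 genes). Among all tested genes 2.49% rose and 0.0443% fell. The genes that rose were 6 of 7 tested fibrillar members, 2 of 5 basement membrane members and 4 of 14 others. The median log2 fold change of the tested collagens was 0.63 above the median of all genes, which itself lay at 0.17. By group these medians were 1.43 for fibrillar, 0.47 for basement membrane and 0.20 for other collagens. Log2 fold changes are given relative to the median of all genes with their standard error (SE), whereas the p-values test the unshifted change against 0. The unadjusted p was under 0.05 for 15 of the 26 members and for 1400 of all 13531 genes. Both knockdown libraries lay above both controls in 18 of the 26 members, against 34.9% of all tested genes, and below them in 2, against 4.49%.

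**Figure D1:**
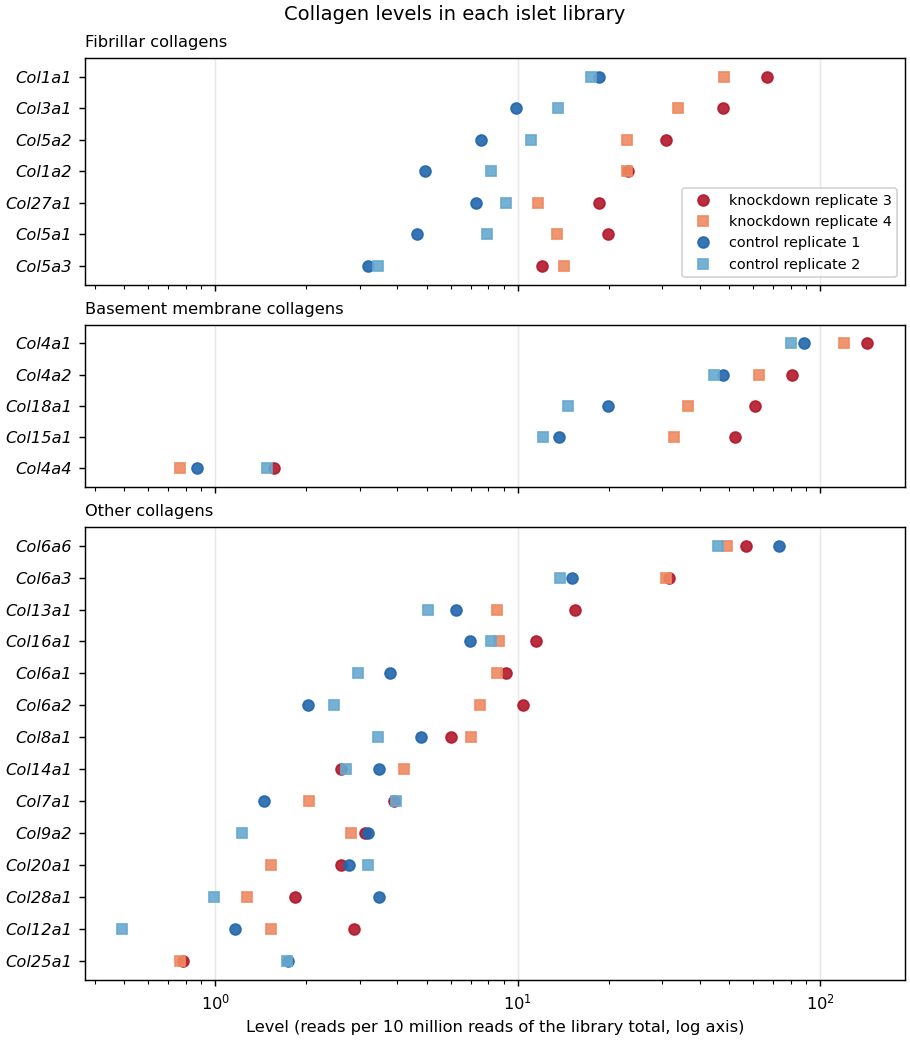
Level of each of the 26 tested collagen genes in units of reads per 10000000 reads of the library total (log axis), one symbol per library, in 3 panels by collagen type. All 7 fibrillar genes have both knockdown libraries to the right of both controls, while the groups overlap for Col6a6, whose levels run between 45.9 and 72.8 units.

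Type I collagen is the main fibre of most connective tissue. Its α1 chain gene Col1a1 (chromosome 11, 94936224 to 94953042, plus strand, mm10) had 66.5 and 48.1 units in the knockdown libraries, against 18.6 and 17.5 in the controls. These values rest on 510 and 378 reads in the knockdown libraries and 128 and 142 in the controls. The means were 57.3 ± 13.0 and 18.1 ± 0.766 units (SD, n = 2 each), and Col1a1 rose by 1.43 ± 0.25 SE on the log2 scale (limma adjusted p = 6.25e-08). The α2 chain gene Col1a2 (chromosome 6, 4505618 to 4541543, plus strand) had 23.2 and 22.9 units in the knockdown libraries and 4.94 and 8.14 in the controls. Both knockdown pools were nearly equal for this gene, and its mean was 3.52 times that of the controls (1.54 ± 0.26 SE, limma adjusted p = 3.27e-08).

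Type III collagen runs beside type I in soft, stretchable tissue. Col3a1 (chromosome 1, 45311538 to 45349706, plus strand) had 47.5 and 33.8 units in the knockdown libraries and 9.88 and 13.6 in the controls, a change of 1.54 ± 0.25 SE (limma adjusted p = 8.17e-09). Its tail-to-tail neighbour Col5a2, which lies 24.6 kb away, had 30.8 and 22.9 units in the knockdown libraries, against 7.56 and 11.1 in the controls. Col5a2 encodes a chain of type V collagen, which sits inside type I fibrils and limits their diameter. It rose by 1.27 ± 0.25 SE (limma adjusted p = 4.13e-06). The partner chain gene Col5a1 had 19.8 and 13.5 units in the knockdown libraries and 4.65 and 7.89 in the controls (1.13 ± 0.27 SE, limma adjusted p = 1.64e-04). Col5a3, which encodes a further type V chain, had 12.0 and 14.2 units in the knockdown libraries and 3.20 and 3.45 in the controls (1.54 ± 0.29 SE, limma adjusted p = 7.74e-07). It was the only one of the 12 genes that rose in which knockdown replicate 4 stood above knockdown replicate 3.

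Col27a1, a fibrillar collagen best known from cartilage, had 18.5 and 11.7 units in the knockdown libraries and 7.26 and 9.13 in the controls. Its groups did not overlap, and the test did not call it (0.62 ± 0.26 SE, limma adjusted p = 0.0871). It contains the miRNA gene Mir455, which was read at 0. The remaining 4 fibrillar genes, Col2a1, Col11a1, Col11a2 and Col24a1, had at most 8 reads in any library.

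The fibrillar calls depended on the libraries to different degrees. Without knockdown replicate 3 the calls of Col3a1, Col1a2 and Col5a3 held (limma adjusted p = 0.0403, 0.00162 and 0.00123), while Col1a1, Col5a2 and Col5a1 were not called (0.150, 0.145 and 0.433). All 6 genes were called without any other single library, after median-ratio scaling and with edgeR's quasi-likelihood test on recovered reads, where the adjusted p ranged between 7.96e-06 for Col1a1 and 0.039 for Col5a1. DESeq2 did not call Col5a1 (adjusted p = 0.232).

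**Figure D2:**
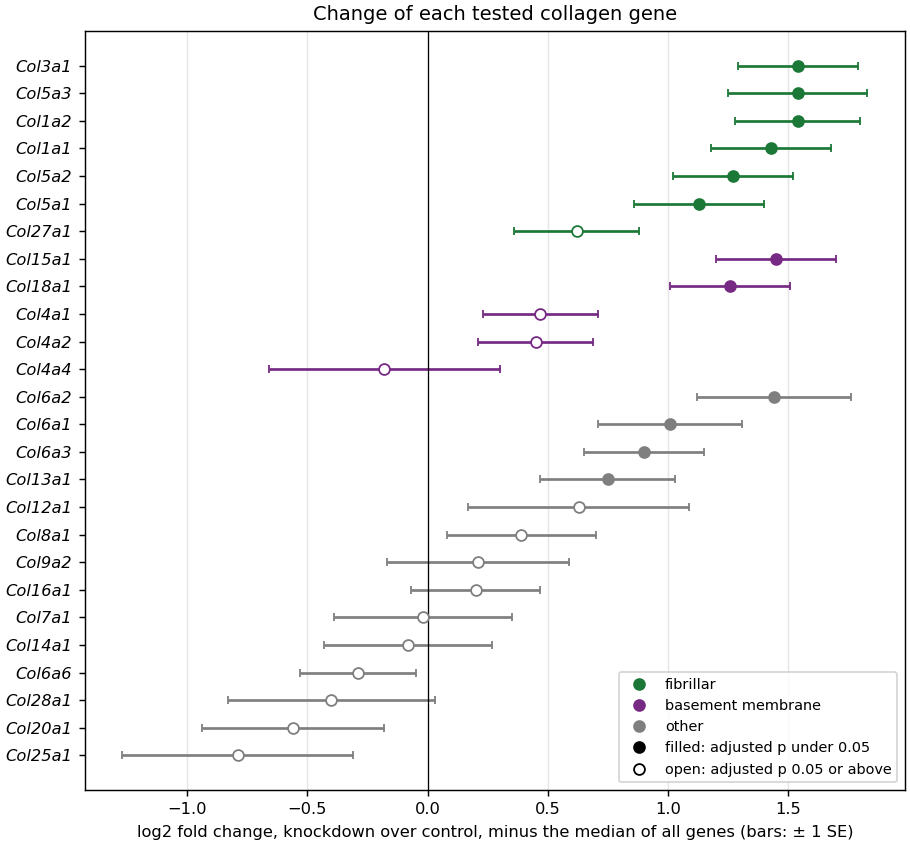
Log2 fold change of each tested collagen gene, knockdown over control, minus the median of all genes, with bars of 1 SE; filled points passed the test at an adjusted p of 0.05. The 6 filled fibrillar genes lie between 1.13 and 1.54, whereas Col4a1 and Col4a2 lie at 0.47 and 0.45.

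Among basement membrane collagens, types XV and XVIII rose. Both are multiplexins, collagens that carry sugar chains and whose ends release endostatin-like fragments. Col15a1 (chromosome 4, 47208012 to 47313165, plus strand) had 52.4 and 32.9 units in the knockdown libraries and 13.7 and 12.1 in the controls. The lower knockdown value was more than that of either control, and the change was 1.45 ± 0.25 SE (limma adjusted p = 5.44e-08, edgeR adjusted p = 3.36e-05). Col18a1 (chromosome 10, 77052179 to 77166530, minus strand) had 60.8 and 36.6 units in the knockdown libraries and 19.8 and 14.6 in the controls (1.26 ± 0.25 SE, limma adjusted p = 2.68e-06). In GENCODE M21 the Col18a1 row overlaps the protein-coding gene Slc19a1, and the Col15a1 row overlaps the antisense gene Gm12426, both on the other strand. Other collagen rows overlap GENCODE genes too. Among them are Col4a1, Col4a2, Col5a1 and Col13a1 on the other strand, and Col1a2, Col5a2 and Col6a3 on the same strand. Counting appears to ignore strand, so all these rows may hold reads of the overlapping genes, which was not tested. With knockdown replicate 3 left out, the adjusted p of limma was 0.143 for Col15a1 and 0.593 for Col18a1, whereas both stayed under 0.05 with any other library left out.

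Col4a1 and Col4a2 encode the chains of the ubiquitous type IV network and had the highest levels per kilobase of exon over the 4 libraries. Col4a1 (chromosome 8, 11198423 to 11312826, minus strand) had 143 and 120 units in the knockdown libraries and 88.6 and 80.1 in the controls. Col4a2 (chromosome 8, 11312805 to 11449287, plus strand) had 80.9 and 62.6 units in the knockdown libraries and 47.7 and 44.4 in the controls. Both genes had higher values in each knockdown pool than in each control and a mean ratio of 1.56. With all libraries neither passed the main test (limma adjusted p = 0.161 and 0.205). Relative to the median of all genes, Col4a1 changed by 0.47 and Col4a2 by 0.45 with all libraries. Without control replicate 1 these changes were 0.40 and 0.37, and without control replicate 2 they were 0.53 and 0.54. The median of all genes itself lay at 0.17, 0.30 and 0.03 in these fits. When values were scaled to the reads outside the 13 abundant rows, Col4a1 was called (limma adjusted p = 0.0145) and Col4a2 was not (0.0535).

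The type IV chains of specialised membranes were near the detection limit. Col4a4 had 1.56 and 0.763 units in the knockdown libraries and 0.872 and 1.48 in the controls, and the groups overlapped. Col4a3, Col4a5 and Col4a6 averaged under 1 unit, with 2 to 10 reads in the knockdown libraries and 0 to 4 in the controls. Col4a3 lies head to head with Col4a4 at 71 bases, and Col4a6 with Col4a5 at 1.34 kb.

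Ratios within a library do not depend on how libraries are scaled, and show how the members compare with each other. Col1a1 had 0.466 and 0.400 times the reads of Col4a1 in the knockdown libraries, against 0.210 and 0.219 in the controls. Col15a1 had 0.367 and 0.274 times the reads of Col4a1 in the knockdown libraries, against 0.154 and 0.151 in the controls. The corresponding ratio for Col18a1 was 0.426 and 0.305 in the knockdown libraries, against 0.223 and 0.182 in the controls. All 3 ratios were higher in both knockdown pools than in both controls. The two-sided exact permutation p was 0.333 for each, the smallest that 2 pools in each group can give. Chain pairs of 1 protein were also compared. Col4a1 to Col4a2 stood at 1.77 and 1.92 in the knockdown libraries and 1.86 and 1.80 in the controls. For Col5a1 to Col5a2 the ratio was 0.644 and 0.589 in the knockdown libraries and 0.615 and 0.711 in the controls, and for Col1a1 to Col1a2 it was 2.87 and 2.1 in the knockdown libraries against 3.76 and 2.15 in the controls. In these 3 pairs the groups overlapped. The groups were narrowly apart in the remaining pair (log2 difference -0.58, exact permutation p = 0.333, the smallest possible). Here Col6a1 to Col6a2 stood at 0.875 and 1.14 in the knockdown libraries and 1.86 and 1.2 in the controls. The control ratios rest on only 26 and 24 reads of Col6a1 and 14 and 20 of Col6a2. Counting error was not taken into account.

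The make-up of the collagen reads was compared next. Fibrillar genes made up 30.1% of all collagen reads in both knockdown libraries, against 15.8% and 22.0% in the controls. Their Wilson 95% intervals were 28.5 to 31.9 and 28.2 to 32.0 in the knockdown libraries, against 13.9 to 17.9 and 19.9 to 24.3 in the controls. They cover counting error only, not the spread between pools, and the intervals of the controls do not overlap each other. Basement membrane genes made up 46.9% and 45.3% in the knockdown libraries and 47.4% and 47.3% in the controls. Other collagens held 22.9% and 24.6% in the knockdown libraries and 36.7% and 30.7% in the controls, of which Col6a6 alone held 7.83% and 8.80% in the knockdown libraries and 20.2% and 14.2% in the controls. The summed level of all 44 genes was 728 and 561 units in the knockdown libraries and 360 and 324 in the controls.

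**Figure D3:**
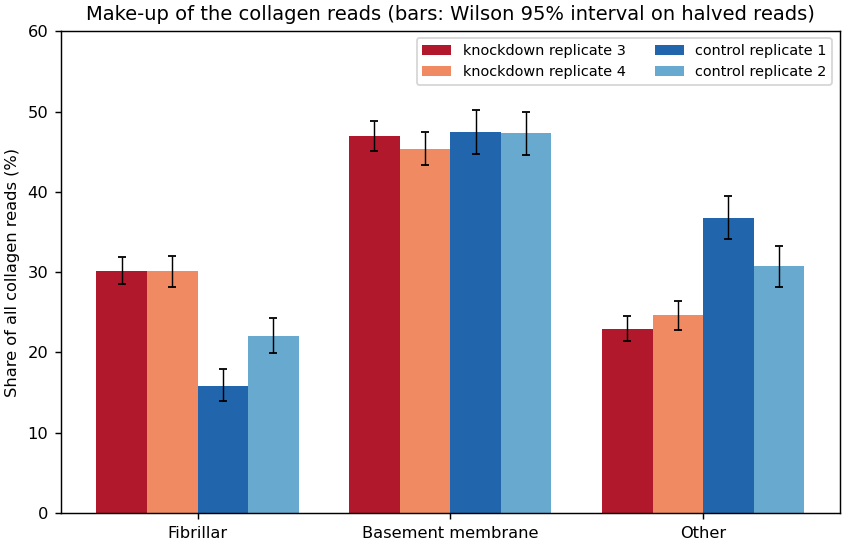
Share of all collagen reads held by fibrillar, basement membrane and other collagens in each library. The Wilson 95% intervals were computed on halved reads and cover counting error only. The fibrillar share is 30.1% in both knockdown libraries and 15.8% and 22.0% in the controls, while the basement membrane share lies between 45.3% and 47.4%.

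Of the other collagens, the 3 widely expressed chains of type VI rose. Type VI collagen forms beaded filaments that join cells to the surrounding matrix. Col6a3 had 31.6 and 31.0 units in the knockdown libraries and 15.1 and 13.8 in the controls (0.90 ± 0.25 SE, limma adjusted p = 0.00193, edgeR adjusted p = 0.00391). Col6a2 had 10.4 and 7.5 units in the knockdown libraries and 2.03 and 2.47 in the controls (1.44 ± 0.32 SE, limma adjusted p = 5.92e-05). Its neighbour on chromosome 10, Col6a1, had 9.13 and 8.52 units in the knockdown libraries and 3.78 and 2.96 in the controls (1.01 ± 0.30 SE, limma adjusted p = 0.00646). In all 3 genes the groups were apart. Leaving out knockdown replicate 3 ended all 3 calls, with limma adjusted p-values of 0.541 for Col6a3, 0.183 for Col6a2 and 0.419 for Col6a1. Col6a3 was not called without knockdown replicate 4 (0.142). Col6a1 was not called without knockdown replicate 4 or control replicate 2 (0.0606 and 0.0799), after median-ratio scaling (0.0766) or by edgeR (0.0818). DESeq2 called neither Col6a2 nor Col6a1 (adjusted p = 0.0605 and 0.414). With no filter on the mean, limma called neither Col6a3 nor Col6a1 (adjusted p = 0.0796 and 0.151).

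Another type VI gene, Col6a6, had 57.0 and 49.3 units in the knockdown libraries and 72.8 and 45.9 in the controls, and the groups overlapped (-0.29 ± 0.24 SE, limma adjusted p = 0.946). It was the most abundant collagen outside the basement membrane group by mean units in the controls. Within a library Col6a3 had 0.554 and 0.629 times the reads of Col6a6 in the knockdown libraries and 0.208 and 0.301 in the controls (exact permutation p = 0.333, the smallest possible). On chromosome 9, Col6a5 follows Col6a6 at 28.0 kb and Col6a4 follows Col6a5 at 29.7 kb, all in the same direction. Col6a5 and Col6a4 had at most 4 reads in any library.

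Col13a1, a transmembrane collagen of cell contacts, had 15.5 and 8.52 units in the knockdown libraries and 6.25 and 5.06 in the controls. It passed the test (0.75 ± 0.28 SE, limma adjusted p = 0.0371), but not after median-ratio scaling (0.257), by edgeR (0.208), or without knockdown replicate 3 or control replicate 2 (limma adjusted p = 1.0 and 0.179). Col16a1, a fibril-associated collagen, had 11.5 and 8.65 units in the knockdown libraries and 6.97 and 8.14 in the controls, without passing the test (limma adjusted p = 0.772). Col8a1, a short-chain collagen of vessel walls, had 6 and 7 units in the knockdown libraries and 4.79 and 3.45 in the controls (limma adjusted p = 0.549).

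The other 7 tested collagens averaged under 5 units and none was called. Col12a1, a fibril-associated collagen, had 2.87 and 1.53 units in the knockdown libraries and 1.16 and 0.493 in the controls. Its control mean was under 1 unit, so that it entered the test through the knockdown libraries. Col25a1, a transmembrane collagen, had 0.782 and 0.763 units in the knockdown libraries and 1.74 and 1.73 in the controls, on 6 to 14 reads, and entered through the controls. Col20a1 had 2.61 and 1.53 units in the knockdown libraries and 2.76 and 3.21 in the controls. These last 2 genes were the ones with both knockdown libraries below both controls (limma adjusted p = 0.778 for Col25a1 and 0.850 for Col20a1). In Col14a1, Col7a1, Col9a2 and Col28a1 the groups overlapped. Col7a1, which encodes the anchoring fibrils of stratified epithelium, had 3.91 and 2.04 units in the knockdown libraries and 1.45 and 3.95 in the controls. Col14a1, a fibril-associated collagen, had 2.61 and 4.2 units in the knockdown libraries and 3.49 and 2.71 in the controls. For Col9a2, a cartilage collagen, the values were 3.13 and 2.80 units in the knockdown libraries and 3.20 and 1.23 in the controls. Col28a1 had 1.83 and 1.27 units in the knockdown libraries and 3.49 and 0.987 in the controls.

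The 18 genes under the limit had at most 14 reads in any library, 92 and 48 reads in sum in the knockdown libraries and 31 and 34 in the controls. They were Col2a1, Col11a1, Col11a2 and Col24a1 of the fibrillar group, Col4a3, Col4a5 and Col4a6 of the basement membrane group, and Col6a4, Col6a5, Col8a2, Col9a1, Col9a3, Col10a1, Col17a1, Col19a1, Col22a1, Col23a1 and Col26a1 of the others. Col9a1 and Col24a1 had 0 reads in every library. Col10a1 lies inside Nt5dc1, whose row holds 16.8 times its level.

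Per kilobase of exon the order of levels was led by type IV in both groups. Col4a1 had 19.1 and 16.1 units per kilobase in the knockdown libraries and 11.9 and 10.7 in the controls, and Col4a2 had 12.2 and 9.45 in the knockdown libraries and 7.20 and 6.71 in the controls. The next place differed. In the knockdown libraries it was held by Col1a1, at 10.1 and 7.32 units per kilobase, against 2.83 and 2.67 in the controls. Col6a6 held that place in the controls, at 7.94 and 5.01 units per kilobase, against 6.22 and 5.38 in the knockdown libraries. In the controls Col4a2 and Col6a6 overlapped in this measure. In the knockdown libraries Col1a1 overlapped with Col4a2, with Col18a1 (8.66 and 5.22) and with Col15a1 (8.26 and 5.19). The reads appear to include introns, so that these levels are not those of mature transcripts, and the order depends on the length used. Per kilobase of gene span, averaged over the 4 libraries, Col1a1 led with 2.24 units, before Col4a1 with 0.943, Col3a1 with 0.686 and Col4a2 with 0.431.

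The number of collagens called depended on the fit, and so did the share of all genes called. After median-ratio scaling 10 collagens were higher (1.12% of all genes higher, 0.163% lower), and after scaling to the reads outside the 13 abundant rows 12 were (1.72% higher, 0.118% lower). With a pseudocount of 0.25 the count was 12 (2.44% higher, 0.0443% lower), and without the mean-variance trend it was 12 (3.9% higher, 0.118% lower). Requiring a mean of 5 units gave 11 of 18 (2.27% higher, 0.0479% lower), and no filter on the mean gave 8 of 42 (0.455% higher, 0% lower). On recovered reads edgeR called 10 (1.29% higher, 0.148% lower) and DESeq2 called 8 (0.613% higher, 0.0813% lower), and edgeR on halved reads called 10 (1.18% higher, 0.133% lower). Without knockdown replicate 3 the count was 3 (0.195% higher, 0.0299% lower), and without knockdown replicate 4 it was 10 (2.37% higher, 0.0222% lower). Without control replicate 1 it was 14 (9.29% higher, 0.272% lower), and without control replicate 2 it was 13 (2.64% higher, 0.433% lower). No collagen was called lower in any of these fits.

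**Figure D4:**
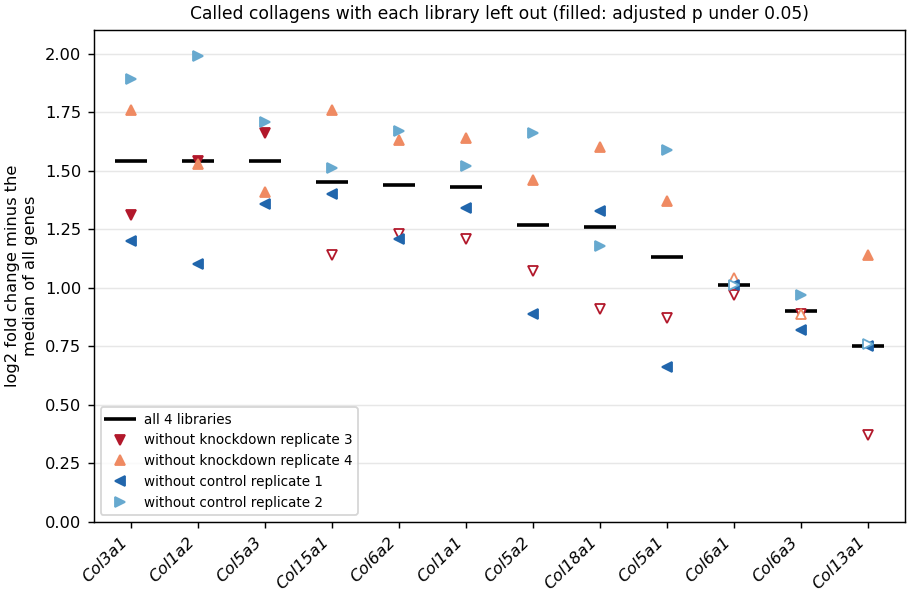
Log2 fold change, minus the median of all genes, of the 12 collagen genes that rose, with all 4 libraries (black bar) and with each library left out in turn (triangles, filled where the limma adjusted p was under 0.05). Every triangle lies above 0, and without knockdown replicate 3 the filled ones are Col3a1, Col1a2 and Col5a3.

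Markers of the cells that make matrix were higher alongside the collagens. Of 20 stellate cell, fibroblast and pericyte markers other than collagens, 19 were tested and 9 rose, against 2.49% of all tested genes. The genes that rose were Dcn, Lum, Pdgfrb, Vim, Pdpn, Fbln2, Fn1, Sparc and Timp1. Not called were Pdgfra, Rgs5, Acta2, Des, Thy1, Dpt, Cspg4, Mgp, Postn and Tagln. Lum averaged 0.66 units in the controls, so that it entered the test through the knockdown libraries. The call of Lum ended by edgeR (adjusted p = 0.121), by DESeq2 (0.424) and, in limma, with median-ratio scaling (0.136), and that of Pdgfrb ended by DESeq2 (0.105). The list summed to 465 and 330 units in the knockdown libraries and 157 and 148 in the controls. Of 16 endothelial markers, 15 were tested and 6 rose (Pecam1, Vwf, Emcn, Plvap, Eng and Sox18). This list summed to 433 and 335 units in the knockdown libraries and 228 and 188 in the controls. After median-ratio scaling 4 endothelial markers were called higher, by edgeR 4 and by DESeq2 3. The calls of Pecam1 and Emcn ended by edgeR (adjusted p = 0.105 and 0.126). Without knockdown replicate 3 limma called 3 of the stellate list and 0 of the endothelial list. No marker of these lists was at 0 in all libraries. In bulk islets a change in the number of such cells and a change in RNA per cell cannot be told apart. The fibrillar collagens amounted to 0.472 and 0.512 of the stellate and fibroblast sum in the knockdown libraries and 0.363 and 0.482 in the controls, and the groups overlapped. For Col15a1 and Col18a1 together this ratio was 0.244 and 0.211 in the knockdown libraries and 0.213 and 0.18 in the controls, also with overlap. Col4a1 and Col4a2 amounted to 0.516 and 0.545 of the endothelial sum in the knockdown libraries and 0.599 and 0.663 in the controls, a ratio that was lower in both knockdown pools. Set against the other list, Col4a1 and Col4a2 amounted to 0.481 and 0.554 of the stellate and fibroblast sum in the knockdown libraries and 0.869 and 0.841 in the controls, also lower in both. The fibrillar collagens amounted to 0.506 and 0.504 of the endothelial sum in the knockdown libraries and 0.25 and 0.38 in the controls, higher in both. The markers were chosen with earlier results of these data known.

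Markers of 5 further cell types were also summed. Duct markers summed to 1965 and 1295 units in the knockdown libraries and 984 and 1086 in the controls. Of 11 tested duct genes 4 were higher (Krt19, Sox9, Spp1 and Anxa3), against 2.49% of all tested genes. Krt19 had 48.1 and 21.9 units in the knockdown libraries and 11.8 and 22.2 in the controls, so its groups overlapped. By edgeR Krt19 was not called (adjusted p = 0.221). The groups also overlapped for Krt7, Krt8, Krt18 and Muc1, none of which was called. Macrophage markers summed to 57.4 and 45.3 units in the knockdown libraries and 41.8 and 38.0 in the controls, with 2 of 5 higher. These were Lyz2 and Cd14, of which Lyz2 averaged 0.984 units in the controls and entered the test through the knockdown libraries. Without knockdown replicate 3 limma called 0 genes of either list. After median-ratio scaling 2 duct genes and 1 macrophage gene were called, and DESeq2 called 0 duct genes and 1 macrophage gene. Acinar markers overlapped, at 5217 and 2472 units in the knockdown libraries and 3005 and 6169 in the controls, with 0 of 12 called. Schwann cell markers (12.8 and 15 units in the knockdown libraries and 9.88 and 8.26 in the controls, 0 of 5 called) and islet endocrine genes (87701 and 93182 units in the knockdown libraries and 100830 and 81883 in the controls, 0 of 10 called) had no gene past the test. By edgeR 0 acinar, 0 Schwann and 1 endocrine gene, which was lower, were called. An unadjusted limma p under 0.05 was found for 1 acinar, 1 Schwann and 0 endocrine genes, and for 1400 of all 13531. The part of any of these in the collagen values was not tested.

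Genes that make, process, sense and induce collagen were counted by role. The list was chosen with earlier results of these data known. Of its 57 genes, 48 were tested, 9 rose and 0 fell, against 2.49% and 0.0443% of all tested genes. By edgeR 4 of the 48 were called higher, against 1.29% of all tested genes. Of 10 signalling genes 5 rose. Ctgf, a matrix-inducing protein downstream of TGF-β, had 35.5 and 21.1 units in the knockdown libraries and 8.43 and 8.39 in the controls (1.43 ± 0.26 SE, limma adjusted p = 1.64e-07, edgeR 2.97e-04). Tgfb1, the ligand, had 25.6 and 19.1 units in the knockdown libraries and 10.3 and 9.37 in the controls (limma adjusted p = 0.00174). Smad7, the feedback inhibitor of the pathway, had 49.8 and 36.1 units in the knockdown libraries and 24.1 and 18 in the controls (limma adjusted p = 0.00472). Tgfbr2, a receptor, and Smad3, a transducer, also rose (limma adjusted p = 0.00214 and 0.00101), but not after median-ratio scaling (0.0996 and 0.112) or by edgeR (0.0569 and 0.0528). Smad4, the most abundant of the 10 signalling genes, had 59.6 and 53.4 units in the knockdown libraries and 46.9 and 44.5 in the controls (limma adjusted p = 0.803).

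Among chaperones and export factors 1 of 9 rose, against 2.49% of all tested genes. That gene was Serpinh1, whose product HSP47 binds collagen in the endoplasmic reticulum. It had 59.7 and 47.6 units in the knockdown libraries and 18.9 and 26.4 in the controls (1.05 ± 0.25 SE, limma adjusted p = 1.15e-04, edgeR 0.00198). Mia3, which helps to pack procollagen into carriers, had 251 and 321 units in the knockdown libraries and 348 and 246 in the controls, and the groups overlapped.

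Of 14 tested hydroxylation and glycosylation genes 0 were called by limma or edgeR. An unadjusted limma p under 0.05 was found for 4 of them, against 1400 of all 13531 tested genes. The most abundant of the 14 was P4hb, a subunit of prolyl 4-hydroxylase that also serves other secreted proteins. It had 571 and 660 units in the knockdown libraries and 719 and 582 in the controls. Of 5 tested propeptide cleavage genes 0 were called by limma or edgeR, with 2 (Adamts2 and Pcolce) at an unadjusted limma p under 0.05. Pcolce and Tll1 averaged 0.784 and 0.559 units in the controls, so that they entered the test through the knockdown libraries. The signalling gene Tgfb2 and the receptor gene Mrc2 entered in the same way (control means 0.827 and 0.639 units), and neither was called. Bmp1, which trims the carboxyl ends of fibrillar procollagens, had 46.2 and 43.7 units in the knockdown libraries and 53.5 and 35.9 in the controls.

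Crosslinking genes rose in 2 of 4 tested cases, against 2.49% of all tested genes. Loxl1 had 7.30 and 6.10 units in the knockdown libraries and 1.16 and 2.22 in the controls (1.38 ± 0.34 SE, limma adjusted p = 7.58e-04, edgeR 0.0528). Lox had 7.30 and 4.07 units in the knockdown libraries and 0.872 and 2.96 in the controls (limma adjusted p = 0.0215, edgeR 0.33). Both genes encode lysyl oxidases, and the most abundant family member, Loxl2, had 13.3 and 13.0 units in the knockdown libraries and 16.3 and 10.9 in the controls. Among receptors 1 of 6 rose: Ddr2, a collagen-activated kinase of mesenchymal cells, had 10.6 and 4.96 units in the knockdown libraries and 2.33 and 3.82 in the controls (limma adjusted p = 0.0359, edgeR 0.279). Its epithelial relative Ddr1 had 159 and 180 units in the knockdown libraries and 183 and 160 in the controls, and the groups overlapped. Without knockdown replicate 3 limma called 0 of the 9 genes, and edgeR with all libraries called 4 (Ctgf, Tgfb1, Smad7 and Serpinh1).

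**Figure D5:**
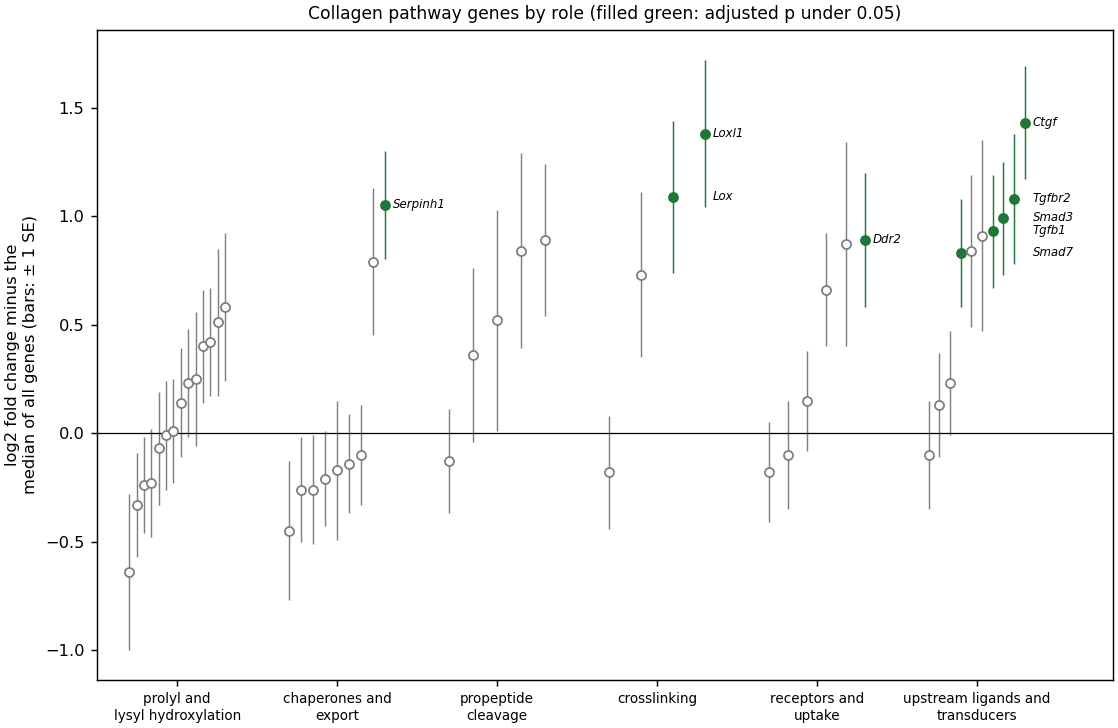
Log2 fold change of 48 collagen pathway genes, knockdown over control, minus the median of all genes, by role, with bars of 1 SE; filled green points passed the test. Signalling genes hold 5 of the 9 filled points, and the hydroxylation and propeptide cleavage genes hold none.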

How the data were processed

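Total RNA of mouse islets was depleted of ribosomal RNA and made into directional, randomly primed libraries, per the labels' protocols. Per the submitters' processing notes, the tools were STAR 2.5.1b, HOMER 4.9 and edgeR, with mm10 as build. The table is announced as FPKM, but its deposited signal is not divided by length: each value is the gene's reads scaled to a library of 10000000. In each library 100% of values were whole multiples of 1 read, within 0.01 reads, so that read counts were recovered from the deposited signal. The length column equals the genomic span in 99.2% of rows, and a gene lying inside a longer gene of the other strand had no more reads than that gene in 104 of 105 pairs, so counting appears to cover introns and ignore strand. Of the non-zero read numbers 73.4% to 75.1% were even, and 131 of 150 among collagens, so reads largely came in pairs. Intervals were therefore computed on halved reads, and cover counting error only.

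Values were tested as log2(value + 1) by limma 3.58.1 (R 4.3.3, variance trend, two-sided). Genes entered with 1 unit or more on average and 200 nt or more in length, and p-values were Benjamini-Hochberg adjusted over all 13531. The prior degrees of freedom were infinite, so each gene's spread was taken from the trend. edgeR 4.0.16 and DESeq2 1.42.0 on recovered counts, other scalings, filters and pseudocounts, and each library left out were alternatives. Exon lengths are from GENCODE M21. Named genes are every collagen of at least 1 unit and, of each pathway role, the genes called and the most abundant by units. The members and lists were chosen with earlier results of these data known. Pathway lists named some genes by current and older symbols, and 57 symbols matched.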

Additional observations from a re-analysis of the deposited data

How the results depend on the processing

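With each library left out in turn the number of collagens called higher ranged between 3 (without knockdown replicate 3) and 14, and 0 were called lower in each. In these fits the lone library of a group is assumed to vary like the others. Their median log2 fold change ranged between 0.36 and 0.90 and was 0.63 with all libraries. Under the other alternatives 8 to 12 collagens were called higher and 0 lower. Requiring a mean of at least 5 units left 18 members with a median of 1.08, because low members were dropped. Halving the reads, an alternative chosen after seeing the data, left 10 collagens called by edgeR. The number of pathway genes called higher was 9 with all libraries and between 0 and 12 with a library left out. It was 5 after either scaling, 2 with no filter on low values, 16 without the trend, 4 by edgeR on recovered or halved reads and 3 by DESeq2; the cause was not tested. Over all genes limma called 337 higher and 6 lower, 151 and 22 after median-ratio scaling (98.3% and 87.3% of calls were higher), 26 and 4 without knockdown replicate 3, and 1264 and 37 without control replicate 1. No paired analysis was possible because the groups share no replicate number. With 2 pools a group, an exact permutation test cannot give a two-sided p below 0.333. The 18 members under the limit, with at most 14 reads in any library, were left out of the tests other than the one with no filter on low values, which took in 42 of the 44 members.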
